A study of Mus musculus with 8 samples.

Results

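The small leucine-rich proteoglycans are secreted matrix proteins built around a row of leucine-rich repeats. The genes studied were Dcn, Bgn, Aspn, Lum, Fmod, Prelp, Omd, Kera, Ogn and Epyc, 10 in all, chosen by name from the family, and all 10 were found among the 22180 genes with a symbol of their own on the array. Expression was measured in primary articular chondrocytes, the cells of joint cartilage, from the knee surfaces of wild-type ICR mice aged 5 days, grown as a monolayer in medium with serum. The control group (Ad-null, 4 arrays) had been infected with a null control adenovirus, and the other group (Ad-Zip8, 4 arrays) with one that expresses ZIP8, a zinc transporter encoded by Slc39a8. RNA was taken 24 h after infection, so both groups carry virus, and which promoter drives ZIP8 is not stated in the labels. The labels call the arrays biological replicates but do not say whether cultures came from separate animals or from pools, so a p-value here reflects array-to-array spread, which may be technical. The question was what overexpressed ZIP8 does to chondrocyte expression.

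These proteins lie along collagen fibrils and set how fibrils grow, pack and bind other matrix parts. Class I members (decorin, biglycan and asporin) carry dermatan or chondroitin sulfate chains or, in asporin, a run of aspartates. Class II members (lumican, fibromodulin, PRELP, osteomodulin and keratocan) tend to carry keratan sulfate or sulfated tyrosines, and class III holds osteoglycin and epiphycan. In joints they are released and cut when cartilage breaks down, and soluble forms of some bind innate immune receptors and growth factors.

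The family split into members that were higher, lower and little moved. With Ad-Zip8 the lumican gene Lum rose 1.90-fold and the decorin gene Dcn 1.63-fold, while the asporin gene Aspn was 3.97-fold lower, the osteomodulin gene Omd 2.00-fold lower and the osteoglycin gene Ogn 1.51-fold lower. The Aspn call was lost in 4 of 8 fits that left out 1 array, and its size is uncertain because its Ad-Zip8 values lay below the array medians. So 2 of 10 rose, 3 fell and 5 did not pass limma's test at an adjusted p of 0.05, set over all genes. Over all genes tested, 10.6% were called in either direction, 5.48% higher and 5.12% lower. With dim genes left out 22.0% of the remaining genes were called, against 5 of the 9 members then tested. The groups did not overlap for 6 members, 2 higher and 4 lower, against 17.6% of all genes, 7.89% higher and 9.74% lower. The median log2 change was -0.09 over the members and -0.02 over all genes. Values are log2 array intensities, so a change of 1 is a doubling. Because probes differ in brightness, levels of different genes on an array are not ranked here. The levels of marker genes, and the place of a gene against the array medians, are for the same reason only a rough guide.

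The labels held in the targeted gene: Slc39a8 stood at 6.20 ± 0.07 in controls against 11.13 ± 0.15 after Ad-Zip8 (SD, n = 4 each). The labelled cell type was checked against 10 chondrocyte markers, whose mean log2 level per array was 12.31 to 12.36 with Ad-null and 11.60 to 11.88 with Ad-Zip8. None of the 10 lay below the array medians, and 8 of them were lower with Ad-Zip8 by limma's test, with a median log2 change of -0.49. Their part in the changes of the proteoglycan genes was not tested. In bulk RNA, fewer cells of a type and less RNA per cell cannot be told apart. The 10 macrophage markers had a mean level per array of 4.67 to 4.84 with Ad-null and 4.75 to 4.83 with Ad-Zip8, against array medians of 5.04 to 5.11. Of these, 7 lay below the medians on all Ad-null arrays and 6 on all Ad-Zip8 arrays. Cx3cr1 (5.91 and 5.89) and Cd68 lay above them, and Csf1r (5.30 and 5.22) did so on all but 1 Ad-Zip8 array. Cd68, a lysosomal gene abundant in macrophages, rose from 6.60 ± 0.24 to 7.43 ± 0.17 (SD, n = 4 each; limma adjusted p = 0.00258), and the other 9 did not pass. The 8 endothelial markers had mean levels of 4.72 to 4.84 and 4.82 to 4.93, with 4 below the medians on all Ad-null arrays and 3 on all Ad-Zip8 arrays. Pecam1 (5.51 and 5.46) and Egfl7 (5.92 and 6.02) lay above the medians. The part of these cells in the results was not tested.

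Most genes of the family sit in short rows on the chromosomes. The row on chromosome 13 was called throughout, though the Aspn call was lost in some fits without a single array, as given above. That on chromosome 10 was called for 2 of 4 genes and that on chromosome 1 for 0 of 3. Over all genes tested 10.6% were called, or 22.0% with dim genes left out, and several flanking genes were called too. The arrangement was not tested. On chromosome 13 RefSeq places Ecm2, Aspn, Omd and Ogn next to each other, and all 4 were lower with Ad-Zip8. Ecm2, which encodes a related matrix protein with leucine-rich repeats and was outside the 10 members, went from 6.22 ± 0.29 to 5.55 ± 0.20 (SD, n = 4 each), a log2 change of -0.67 (SE 0.15, limma adjusted p = 0.0188). The genes flanking this row mostly had negative changes too, smaller in size than those in the row. On one side Ippk had a log2 change of -0.16 and Bicd2 of -0.08, neither past the test. On the other side Nol8 had a log2 change of -0.23 and did not pass, and Iars, an aminoacyl-tRNA synthetase gene, was 1.23-fold lower (adjusted p = 0.0157). Gm272 had a change of 0.06 and lay below the array medians on 4 Ad-null and 3 Ad-Zip8 arrays. RefSeq draws Cenpp, a centromere protein gene, over all 4 genes, with its start on the opposite strand. The value assigned to Cenpp was 1.34-fold higher (adjusted p = 0.0299), but which strand its probes read was not known here, so it may not be that of Cenpp alone. The flanking genes were added after the members' values were seen.

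On chromosome 10 the row runs Dcn, Lum, Kera, Epyc. Dcn and Lum, which stand side by side, were the members that rose. Kera, the next in the row, had a log2 change of -0.17 and Epyc of 0.15, neither past the test. Among the flanking genes, Btg1, a growth-restraining gene beside Dcn, was 1.34-fold higher (limma adjusted p = 0.0283), the calcium pump gene Atp2b1 on the far side was 1.20-fold lower (adjusted p = 0.0312), and 4 others did not pass. On chromosome 1 Optc, Prelp and Fmod did not pass the test. Of 6 flanking genes 3 rose: Chil1, which encodes a chitinase-like protein secreted by chondrocytes, was 8.60-fold higher (adjusted p = 7.84e-06), Atp2b4 2.66-fold (adjusted p = 1.44e-04) and Btg2 1.41-fold (adjusted p = 0.0116). With Ad-Zip8, Chil1 stood at 12.85 ± 0.02 (SD, n = 4), near the upper end of the scale, so the size of its rise is uncertain. The other 3 flanking genes, Snrpe (-0.09), Lax1 (0.14) and Chit1 (0.12), did not pass. Bgn lies alone on chromosome X, and neither it nor its 6 measured neighbours were called.

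**Figure D1:**
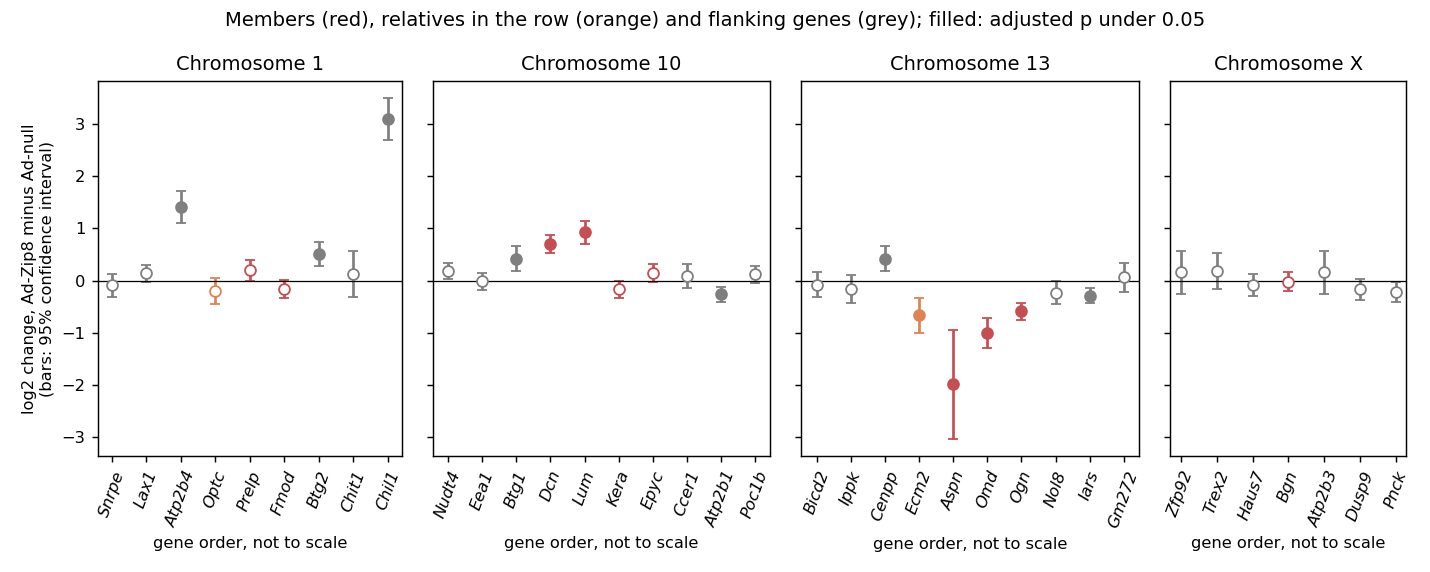
Log2 change (Ad-Zip8 minus Ad-null, vertical axis, with its 95% confidence interval) of the proteoglycan genes and their measured protein-coding neighbours in RefSeq gene order, 1 panel for each chromosome, with filled points for an adjusted p under 0.05. All 4 genes of the chromosome 13 row lie below 0, Aspn the lowest at -1.99 with the widest interval, and on chromosome 10 Dcn (0.70) and Lum (0.93) lie above 0 while Kera and Epyc lie near it.

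Because the chromosome 13 neighbours were lower together, their promoters are shown, from 250 bases before to 50 after each RefSeq start (GRCm38.p6, plus strand). RefSeq promoter sequences were matched for 8 of the 10 members, and Dcn and Lum had no entry. Capitals mark matches on either strand to any of 6 motifs: the TATA box TATAAA, the AP-1 site TGACTCA, the C/EBP site TTGCNNAA, the NF-kB site and the metal response element cores TGCACNC and TGCGCNC. The windows are chr13:49504560-49504859 for Ecm2, chr13:49544193-49544492 for Aspn, chr13:49582212-49582511 for Omd and chr13:49607765-49608064 for Ogn.
Ecm2: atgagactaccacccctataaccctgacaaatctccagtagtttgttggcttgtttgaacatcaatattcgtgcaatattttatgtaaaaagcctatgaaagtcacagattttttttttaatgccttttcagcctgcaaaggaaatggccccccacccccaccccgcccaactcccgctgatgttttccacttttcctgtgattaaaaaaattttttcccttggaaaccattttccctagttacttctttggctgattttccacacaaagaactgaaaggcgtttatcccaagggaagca
Aspn: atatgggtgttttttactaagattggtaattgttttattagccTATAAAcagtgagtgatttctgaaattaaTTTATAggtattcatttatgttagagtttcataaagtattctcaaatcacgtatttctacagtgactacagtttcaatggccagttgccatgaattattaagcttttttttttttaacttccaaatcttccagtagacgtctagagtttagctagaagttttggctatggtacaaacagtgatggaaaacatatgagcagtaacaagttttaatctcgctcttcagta
Omd: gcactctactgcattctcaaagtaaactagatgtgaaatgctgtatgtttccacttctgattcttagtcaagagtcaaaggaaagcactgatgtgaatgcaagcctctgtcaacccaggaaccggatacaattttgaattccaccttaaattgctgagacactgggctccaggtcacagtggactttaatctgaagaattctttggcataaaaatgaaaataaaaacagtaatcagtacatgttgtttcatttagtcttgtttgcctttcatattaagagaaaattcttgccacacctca
Ogn: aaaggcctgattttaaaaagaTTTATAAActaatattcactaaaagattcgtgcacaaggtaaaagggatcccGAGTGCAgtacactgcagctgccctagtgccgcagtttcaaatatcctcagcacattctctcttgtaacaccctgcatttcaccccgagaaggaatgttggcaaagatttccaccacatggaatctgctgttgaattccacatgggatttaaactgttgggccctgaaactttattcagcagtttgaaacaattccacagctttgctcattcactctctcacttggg

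Aspn held TATAAA in 2 places, beginning at -207 and -178 from the start, and Ogn held 2 overlapping matches, beginning at -229 and -227. Of all 32817 RefSeq promoters of this length 13.6% held TATAAA. Ogn also held TGCACNC, as did 12.6% of all promoters, and so did Kera and an Epyc promoter on chromosome 10. The Ecm2 and Omd windows held none of the 6, and no AP-1, C/EBP, NF-kB or TGCGCNC match lay in any of the 4, which says only that these letters are not in these windows. AP-1, C/EBP, NF-kB and TGCGCNC matches were found in 5.2%, 10.8%, 0.411% and 15.4% of all promoters. The 4 windows were poor in G and C. Their GC content was 31.0% for Aspn, 37.7% for Omd, 41.0% for Ecm2 and 42.3% for Ogn, against a median of 52.7% over all promoters, and 1.28% of promoters were lower than Aspn. Members that did not pass lay on both sides of the median: Bgn had 63.7%, Prelp 55.3%, Fmod 51.0%, Kera 41.0% and the 2 Epyc promoters 40.3% and 32.3%. The values of Kera and Epyc lay within the range of the 4 windows, and any part of GC content in the changes was not tested. The longest stretches shared by pairs of the 4 windows had 9 to 12 bases. The longest, between Ecm2 and Aspn, is mainly a run of T found in 465 promoters of the table, that between Omd and Ogn (TTGAATTCCAC, 11 bases) is in 5, and the other 4 are in 11 to 229. These matches are descriptions, and their part in the changes was not tested.

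Among class I members, Dcn rose, Bgn did not pass and Aspn fell. Dcn encodes decorin, which coats collagen fibrils and binds TGF-beta. It was at 11.97, 11.87, 12.06 and 12.18 in Ad-null replicates 1 to 4 and at 12.75, 12.63, 12.74 and 12.75 in Ad-Zip8 replicates 1 to 4. Every Ad-Zip8 array lay above every Ad-null array, and the Ad-Zip8 arrays spread less (SD 0.06 against 0.13, n = 4 each). The log2 change was 0.70 (SE 0.08, limma adjusted p = 4.91e-04). These values stand high on a scale that ended at 13.8, where differences are compressed, so the size of the rise is uncertain.

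Bgn encodes biglycan, the closest relative of decorin and, when soluble, a ligand of Toll-like receptors 2 and 4. Its arrays read 13.28, 13.29, 13.11 and 13.05 with Ad-null and 13.15, 13.28, 13.11 and 13.09 with Ad-Zip8. The groups overlapped almost wholly, close to the upper end of the scale. The log2 change was -0.02, with a 95% confidence interval from -0.21 to 0.16 (adjusted p = 0.905). A dimmer probe set of Bgn, away from the upper end, had means of 10.43 ± 0.13 and 10.52 ± 0.09 (SD, n = 4 each), so both probe sets showed little movement and the direction differed between them. Within arrays, Dcn rose relative to Bgn by 0.73 (exact permutation test over 70 assignments, two-sided, p = 0.0286, the smallest possible; 0.0286 after Benjamini-Hochberg adjustment over 4 pairs). When only signs within the same replicate number were exchanged, an alternative added after seeing the data, each of the 4 pairs of genes compared in this way gave an exact p of 0.125, the smallest that 4 numbers allow. All 4 numbers had the same direction in each, but none of the 4 comparisons can pass the threshold in that test. The 4 pairs were chosen with earlier results of these data known. Each sets a called member against a member not called or, for Aspn, called in the other direction. These tests therefore add little to the calls on single genes.

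Aspn encodes asporin, which binds TGF-beta and collagen. It was at 7.16, 6.58, 5.17 and 6.89 in Ad-null replicates 1 to 4, and at 4.74, 5.06, 3.30 and 4.74 in Ad-Zip8 replicates 1 to 4. The groups did not overlap, but the lowest Ad-null array (replicate 3, 5.17) and the highest Ad-Zip8 array (replicate 2, 5.06) lay close together. Means were 6.45 ± 0.89 and 4.46 ± 0.79 (SD, n = 4 each), a log2 change of -1.99 with a 95% confidence interval from -3.04 to -0.94 (SE 0.47, limma adjusted p = 0.0236). The Ad-Zip8 arrays all lay below their array medians, where background compresses differences. The call ended without Ad-null replicate 1 (adjusted p = 0.0689), Ad-null replicate 2 (0.0583), Ad-null replicate 4 (0.0684) or Ad-Zip8 replicate 1 (0.0508). Between arrays of the same replicate number the difference was -2.42, -1.52, -1.87 and -2.15, lower in 4 of 4. Relative to Aspn, Dcn was higher by 2.69 within arrays (exact permutation p = 0.0286, 0.0286 adjusted over 4 pairs), and without any single Ad-Zip8 array that exact p was 0.0571. The size of this difference is uncertain, since Aspn lay near background and Dcn near the top of the scale.

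**Figure D2:**
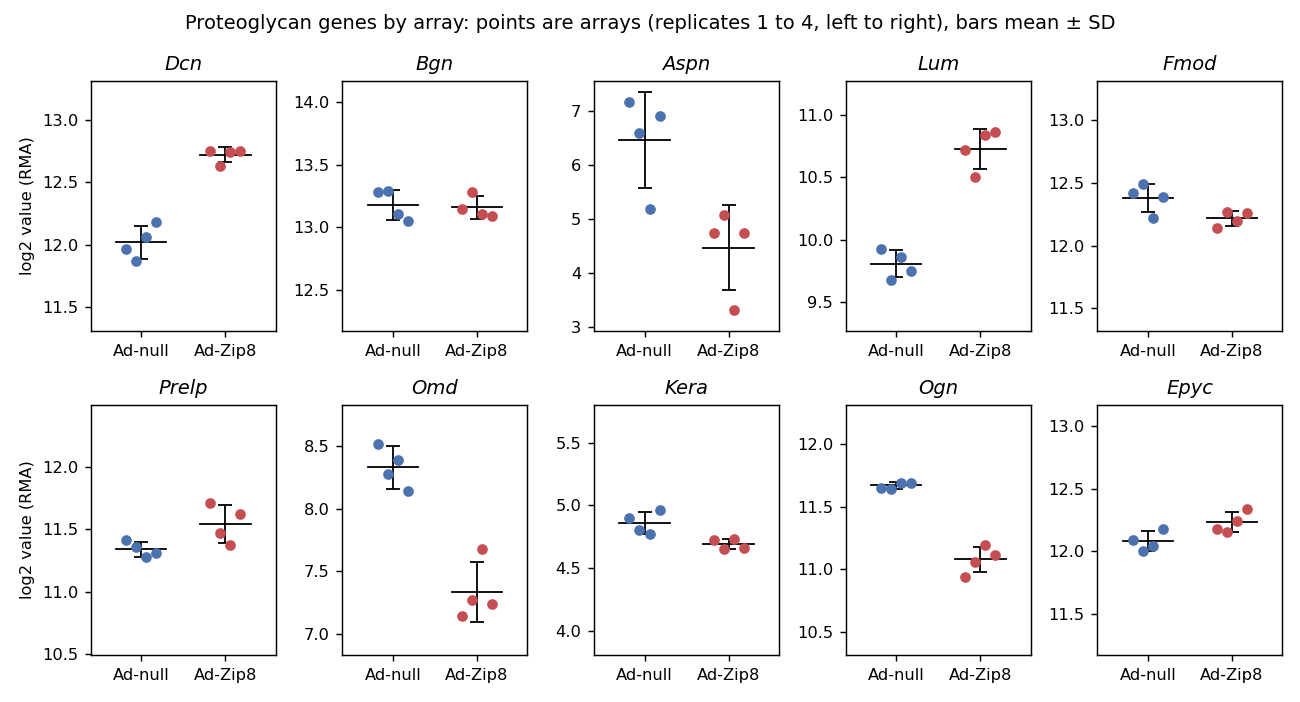
Log2 value (vertical axis, RMA) of each of the 10 genes on every array, Ad-null in blue and Ad-Zip8 in red, with mean ± SD, n = 4 each. Each panel has its own range, at least 2 log2 units tall. Dcn and Lum lie higher and Omd, Ogn and Aspn lower with Ad-Zip8 without overlap, and replicate 3 is the lowest Aspn array in both groups (5.17 and 3.30).

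The spread of Aspn within groups was the largest of the members, with a pooled SD of 0.84 against a median of 0.15 over all genes, and 0.108% of genes had a larger one. The other 9 members had pooled SDs of 0.07 to 0.20. Replicate 3 was the lowest Aspn array in each group, at 1.28 below the Ad-null mean and 1.16 below the Ad-Zip8 mean. Prelp was the other member lowest in replicate 3 of both groups, by far smaller steps (11.28 and 11.37). Other genes were ranked by how near their 8 deviations from the group means lay to those of Aspn, by root mean square difference. Predicted and unnamed genes, small RNAs, pseudogenes, and olfactory, vomeronasal and antigen receptor genes were left out by name. The nearest 5 of the rest were Spopfm2 (0.35), Tnmd (0.42), Ifi214 (0.43), Cd34 (0.45) and Dpt (0.46). Tnmd encodes tenomodulin, a tendon and ligament protein, Cd34 marks stromal and endothelial progenitors, and Dpt encodes dermatopontin of fibrous connective tissue. Spopfm2, the nearest, and Ifi214 lay near or below the array medians (4.94 and 5.08 for Spopfm2, 2.91 and 2.96 for Ifi214, Ad-null and Ad-Zip8), with log2 changes of 0.14 and 0.04. Tnmd deviated by -0.87 in Ad-null replicate 3 and -0.29 in Ad-Zip8 replicate 3, and Dpt by -1.00 and -0.43. All 5 were lowest in replicate 3 of both groups. None of the 5 passed the test between groups: Tnmd changed in the mean by -0.61 (SE 0.25, limma adjusted p = 0.179), Dpt by -0.93 (SE 0.35, adjusted p = 0.139) and Cd34 by 0.69 (SE 0.22, adjusted p = 0.0878). These 5 were chosen from all genes kept by that filter on names, for their likeness over 8 arrays, which is a description.

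**Figure D3:**
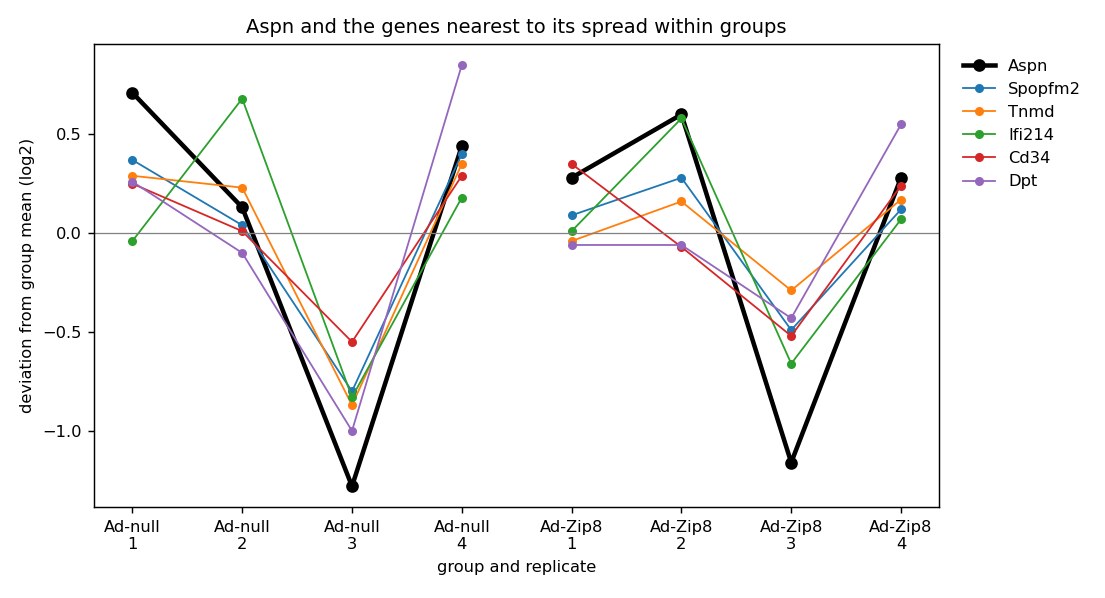
Deviation of each array from its group mean (vertical axis, log2) for Aspn, in black, and the 5 genes nearest to it after the filter on names, by group and replicate. The lines fall together at replicate 3 in both groups, to -1.28 and -1.16 for Aspn and to between -1.00 and -0.29 for the other 5.

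Tendon and perichondrial genes, measured because such tissue borders the cartilage, had a mean log2 level per array of 7.15 to 7.58 with Ad-null and 6.98 to 7.08 with Ad-Zip8. Of the 8, 3 fell, none rose and 5 did not pass. Those that fell were Tnc, the tenascin C gene (-1.15, SE 0.12, limma adjusted p = 2.12e-04), the tendon transcription factor gene Mkx (-1.11, SE 0.12, adjusted p = 3.48e-04) and Fibin (-0.53, SE 0.10, adjusted p = 0.00726). Scx, the other tendon transcription factor gene, had a change of 0.26 and did not pass, and Kera is counted in this list too. Fibroblast genes went both ways: 3 of 10 rose, among them S100a4 (1.09, adjusted p = 0.00511) and the PDGF receptor gene Pdgfra (0.86, adjusted p = 0.0114), and Pdgfrb fell (-0.42, adjusted p = 0.0149). The other 6 did not pass, among them Col1a1 (-0.06), Col3a1 (-0.07) and Vim (-0.19), and the median log2 change of the fibroblast genes was 0.01. Their mean level per array was 7.75 to 8.13 with Ad-null and 7.95 to 8.28 with Ad-Zip8. The part of bordering tissue in the proteoglycan changes was not tested.

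Among class II members, Lum rose, Omd fell, and Fmod, Prelp and Kera did not pass. Lum encodes lumican, a keratan sulfate proteoglycan that spaces collagen fibrils. It was at 9.93, 9.68, 9.86 and 9.75 in Ad-null replicates 1 to 4 and at 10.72, 10.50, 10.84 and 10.86 in Ad-Zip8 replicates 1 to 4. Each Ad-Zip8 array stood above the whole Ad-null group, well clear of both ends of the scale. The log2 change was 0.93 with a 95% confidence interval from 0.71 to 1.15 (SE 0.10, limma adjusted p = 2.59e-04).

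Fmod encodes fibromodulin, which competes with lumican for a site on collagen. Its arrays read 12.42, 12.49, 12.22 and 12.39 with Ad-null and 12.14, 12.27, 12.20 and 12.26 with Ad-Zip8, so the groups overlapped. The log2 change was -0.16, with a 95% confidence interval from -0.34 to 0.01 (adjusted p = 0.253), at a height on the scale where, as for Dcn, differences are compressed. A dimmer Fmod probe set had means of 9.49 ± 0.08 and 9.40 ± 0.11 (SD, n = 4 each). Lum rose relative to Fmod within arrays by 1.09 (exact permutation p = 0.0286, 0.0286 adjusted over 4 pairs).

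Omd encodes osteomodulin, also called osteoadherin, a mineralised-tissue protein that binds integrins. Ad-null arrays read 8.52, 8.28, 8.39 and 8.14, and Ad-Zip8 arrays 7.14, 7.27, 7.68 and 7.24. The groups lay apart, with Ad-Zip8 replicate 3 the highest of its group. Means were 8.33 ± 0.17 and 7.33 ± 0.24 (SD, n = 4 each), a log2 change of -1.00 (SE 0.13, limma adjusted p = 7.96e-04). Both groups lay in the middle of the scale.

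Prelp encodes a proteoglycan relative with a basic end that binds heparan sulfate. It ranged from 11.28 to 11.41 with Ad-null and from 11.37 to 11.71 with Ad-Zip8, so the groups overlapped. The log2 change was 0.20 (SE 0.09, unadjusted p = 0.0461 and adjusted p = 0.210 by limma), and a dim second probe set had means of 6.22 ± 0.11 and 6.28 ± 0.07 (SD, n = 4 each). Kera encodes keratocan, best known from the cornea. It ranged from 4.77 to 4.96 with Ad-null and from 4.65 to 4.73 with Ad-Zip8, below the array median on all 8 arrays. The Kera groups did not overlap, yet the log2 change of -0.17 (SE 0.07, limma adjusted p = 0.188) did not pass, and at this level it cannot be told from background.

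In class III, Ogn fell and Epyc did not pass. Ogn encodes osteoglycin, also called mimecan, which takes part in collagen fibril formation. It was at 11.65, 11.64, 11.69 and 11.69 in Ad-null replicates 1 to 4 and at 10.94, 11.06, 11.19 and 11.11 in Ad-Zip8 replicates 1 to 4. The Ad-null arrays were tight (SD 0.03, n = 4), and every Ad-Zip8 array lay below them. The log2 change was -0.59 with a 95% confidence interval from -0.76 to -0.43 (SE 0.07, limma adjusted p = 6.77e-04).

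Epyc encodes epiphycan, a proteoglycan of growth cartilage. Its arrays read 12.09, 12.00, 12.04 and 12.18 with Ad-null and 12.18, 12.15, 12.24 and 12.34 with Ad-Zip8. The groups overlapped, and the log2 change of 0.15 had a 95% confidence interval from -0.02 to 0.32 (adjusted p = 0.275), with the same limit near the top of the scale. Ogn fell relative to Epyc within arrays by 0.74 (exact permutation p = 0.0286, 0.0286 adjusted over 4 pairs). Of the chondrocyte markers, Acan, the aggrecan gene, changed by -0.54 (adjusted p = 0.00181) and Matn1, the matrilin 1 gene, by -1.14 (adjusted p = 2.16e-04). Sox9 (-0.19, adjusted p = 0.137) and Col2a1 (-0.22, adjusted p = 0.0790) did not pass, and none of these was tested against Epyc.

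Other leucine-rich repeat proteins of the matrix were measured for 7 of 8 genes, of which 1 rose and 2 fell; the median log2 change was -0.01 and 4 genes missed the threshold. Podnl1, which encodes a podocan-like protein, went from 5.89 ± 0.13 to 6.94 ± 0.14 (SD, n = 4 each), a change of 1.05 (SE 0.09, limma adjusted p = 1.05e-04). Chad, the gene of the cartilage protein chondroadherin, went from 9.73 ± 0.19 to 8.84 ± 0.17 (SD, n = 4 each), a change of -0.89 (SE 0.12, adjusted p = 9.87e-04), and Ecm2 is described above. Chadl (-0.01), Podn (0.08) and Optc (-0.21) did not pass.

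The collagens that these proteins bind were lower or little moved. Of 14 measured genes for collagens and elastin, 5 fell, none rose and 9 missed the threshold. The median of their log2 changes was -0.22. Col9a1, a chain of collagen IX on the surface of cartilage fibrils, changed by -0.44 (SE 0.08, limma adjusted p = 0.00447) and Col14a1, a fibril-associated collagen gene, by -0.68 (SE 0.12, adjusted p = 0.00559). Col1a2 changed by -0.38 (adjusted p = 0.0218), Col11a1 by -0.36 (adjusted p = 0.0237) and Col5a1 by -0.24 (adjusted p = 0.0465). Col2a1 (-0.22), Col6a1 (0.18) and Col1a1 (-0.06) did not pass, and Col2a1 lay above 13 on the log2 scale in both groups.

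Enzymes that build the sugar chains moved in both directions. Of 15 genes for the linkage region and for dermatan and chondroitin sulfate, 3 rose, 4 fell and 8 did not pass. Xylt1, whose product starts the chain on a serine of the core protein, changed by -0.57 (SE 0.08, limma adjusted p = 0.00189), the xylose kinase gene Fam20b by -0.40 (adjusted p = 0.00468) and Csgalnact1, which commits the linkage to chondroitin, by -0.46 (adjusted p = 0.00324). B3gat3, another linkage enzyme gene, was the remaining lower gene (-0.34, adjusted p = 0.0254) and is named after its value was seen. Those that rose were Chsy1, a chain polymerase gene (0.41, adjusted p = 0.00740), and Dse (0.35, adjusted p = 0.00740) and Dsel (0.33, adjusted p = 0.0172), whose products turn glucuronic into iduronic acid and so make dermatan sulfate. Dsel is likewise named after its value was seen. Of 10 keratan sulfate genes 3 rose, none fell and 7 did not pass: the sialyltransferase gene St3gal1 (1.12, SE 0.11, adjusted p = 1.72e-04), the galactosyltransferase gene B4galt1 (0.84, SE 0.09, adjusted p = 2.61e-04) and the sulfotransferase gene Chst2 (0.50, adjusted p = 0.0425). B4galt1 and St3gal1 also act on many other glycans.

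Of 13 genes for proteases able to cut these core proteins, 6 rose, none fell and 7 missed the threshold. Mmp3, the stromelysin 1 gene, went from 5.38 ± 0.56 to 11.38 ± 0.38, and Mmp13, the collagenase 3 gene, from 8.47 ± 0.58 to 12.88 ± 0.08 (SD, n = 4 each), with limma adjusted p of 2.10e-06 and 5.04e-06. Mmp13 with Ad-Zip8 lies near the upper end of the scale. Mmp12 changed by 1.98, Mmp9 by 2.20 and Adamts5 by 1.52 (adjusted p of 3.53e-05, 8.05e-05 and 7.44e-04), and the gelatinase gene Mmp2, named after its value was seen, by 0.67 (adjusted p = 8.59e-04). With Ad-null, Mmp12 lay below the array medians on 4 arrays, Mmp3 on 2 and Mmp9 on 1. The sizes of these 3 rises are therefore uncertain. Mmp14 (-0.04), Bmp1 (-0.07), whose product trims probiglycan, and Htra1 (0.17) did not pass. RNA levels do not show cleavage of the proteins.

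Receptors and ligands that bind soluble members were also measured, and of 23 genes 7 rose, 3 fell and 13 missed the threshold. Their median log2 change was 0.08. The biglycan receptor gene Tlr2 went from 7.10 ± 0.24 to 8.58 ± 0.08 and Tlr4 from 6.59 ± 0.10 to 7.60 ± 0.18 (SD, n = 4 each), with limma adjusted p of 4.91e-05 and 1.72e-04. Their co-receptor genes Cd14 (1.39, SE 0.15, adjusted p = 3.22e-04) and Cd44 (1.22, SE 0.11, adjusted p = 9.21e-05) rose as well, as did Egfr, whose product decorin binds (1.14, SE 0.13, adjusted p = 4.91e-04). Of the bound ligands, Tgfb2 (-0.73, adjusted p = 0.00113), Tgfb3 (-0.59, adjusted p = 0.00299) and Ccn4 (-0.52, adjusted p = 0.00857) fell, while Tnf rose (0.38, adjusted p = 0.0356) and Tgfb1 (0.11), Bmp2 (-0.18) and Bmp4 (-0.04) did not pass. Tnf lay below the array medians on 2 Ad-null arrays, so the size of its rise is uncertain. The receptor gene P2rx4 was the remaining gene that rose (0.72, limma adjusted p = 0.00358). These ligands and P2rx4 are named after their values were seen. Itgb1 (-0.01), Lrp6 (-0.11) and Lrp1 (0.08) did not pass.

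**Figure D4:**
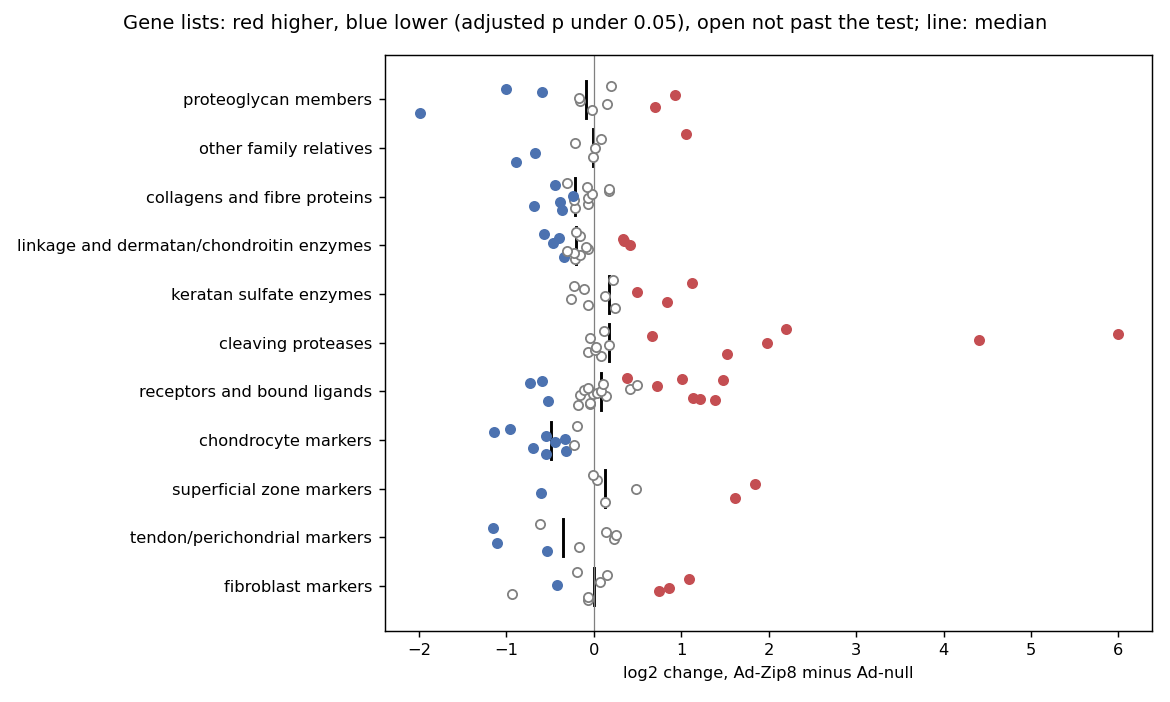
Log2 change (horizontal axis, Ad-Zip8 minus Ad-null) of each measured gene, 1 row for each list, with red points higher, blue points lower and open points not past an adjusted p of 0.05, and a black line at the median. The 10 proteoglycan genes spread from -1.99 to 0.93 around a median of -0.09, the proteases reach 5.99 with none lower, and the chondrocyte markers all lie below 0.

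The calls on Dcn, Lum, Ogn and Omd held in each of 15 alternative fits, and 2 members rose in all of them. Across these fits the log2 change ranged from 0.65 to 0.75 for Dcn, from 0.88 to 1.00 for Lum, from -0.63 to -0.55 for Ogn and from -1.12 to -0.94 for Omd. Aspn ranged from -2.42 to -1.60.

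**Figure D5:**
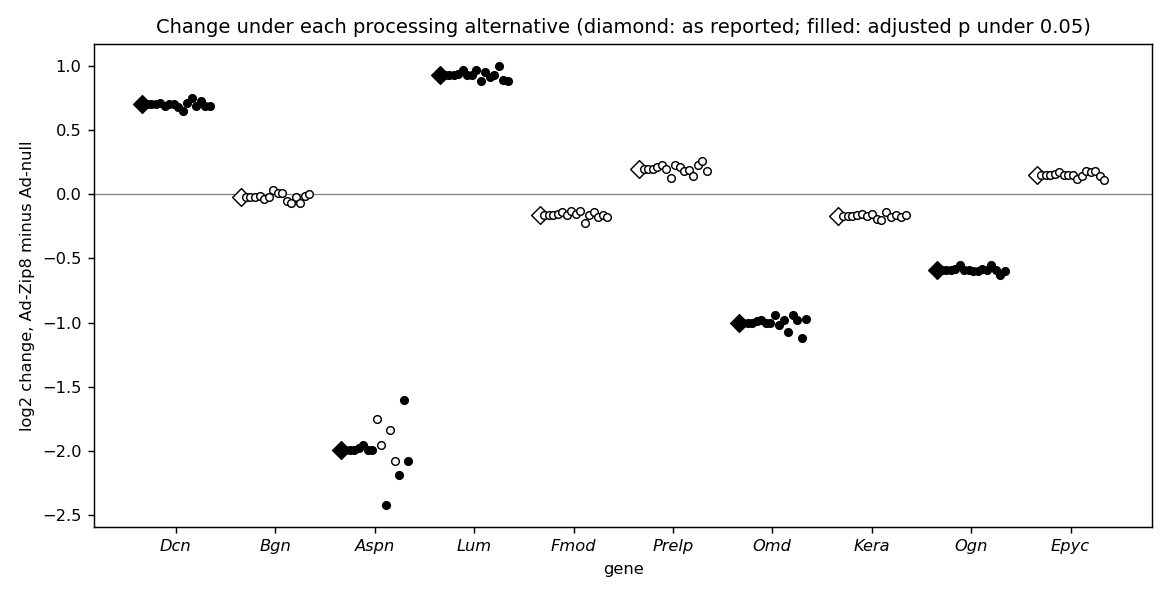
Log2 change (vertical axis, Ad-Zip8 minus Ad-null) of each gene as reported (diamond) and under the 15 alternatives (circles; 14 for Kera, which the filter on dim genes removes), filled where the adjusted p was under 0.05. Dcn, Lum, Omd and Ogn stay filled throughout, Aspn has 4 unfilled circles, and Bgn, Fmod, Prelp, Kera and Epyc are unfilled near 0.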

How the data were processed

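Total RNA of 8 cultures was labelled with biotin as sense cDNA, per the labels' protocols. Per the submitters' processing notes, RMA (background correction, quantile normalization and probe summary) was used, and the authors deposited 1 log2 value per probe set and array. For the RMA version, probe annotation and build, nothing is given in the sources used here. Values ran from 0.85 to 13.8. Precision is limited by having 8 arrays.

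The platform table gave 1 symbol to 23521 of 41345 probe sets, several to 1814 and did not list 16010. The probe set with the highest mean was kept for each of 22180 genes; Bgn, Fmod and Prelp had 2. Groups were compared with limma 3.58.1 in R 4.3.3 (lmFit, eBayes, two-sided, Benjamini-Hochberg over all genes), tested on simulated data. Members, lists and tests were chosen with earlier results of these data known. Named genes were drawn mainly from the members, Slc39a8, in each list the 5 smallest adjusted p among those called and the 3 brightest others, and the 5 genes nearest to the most variable member. The nearest genes were taken after predicted genes, small RNAs and some receptor families were left out by name. Not every gene so drawn is given, and some others were named after their values were seen. Same-numbered arrays correlated at 0.11 to 0.37 in their deviations from the group means, others at -0.27 to 0.16, so, from the data alone, equal numbers were treated as pairs in an alternative with a replicate block.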

Additional observations from a re-analysis of the deposited data

Results flagged for a closer look

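Dcn in Ad-Zip8 replicate 2, at 12.63, stood apart from the other 3 Ad-Zip8 arrays (12.74 to 12.75), its gap being 0.921 of the group's range. It still lay above every Ad-null array. Of 22 groups of 4 arrays examined for the members and Slc39a8, this was the 1 so marked, and chance marks about 1 group in 20.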

How the results depend on the processing

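The 15 alternatives were a replicate block, a variance trend, robust variances, arrays centred on their medians, repeated quantile normalization, dim genes left out, the mean over probe sets, and each array left out in turn. With the replicate block Aspn changed by -1.99 (adjusted p = 6.89e-04), and pairing by number changed no limma call on the members. The 4 comparisons between genes lost theirs when signs were flipped within numbers (0.73 for Dcn and Bgn, 2.69 for Dcn and Aspn, 1.09 for Lum and Fmod, -0.74 for Ogn and Epyc, each with exact p = 0.125, the smallest possible). Without 1 array, Aspn ranged from -2.42 to -1.60 and lost its call in 4 of 8 fits, named above. Bgn, never called, turned to 0.03 with the mean over probe sets, where its brighter and dimmer probe sets moved in opposite directions, and ranged from -0.07 to 0.01 without 1 array. The difference between the changes of Dcn and Aspn ranged from 2.29 to 3.13 without 1 array. Over all genes, 1136 were lower; without 1 array this ranged from 708 (without Ad-Zip8 replicate 1) to 923, and was 721 without Ad-null replicate 1. Fewer arrays enter these fits. All other counts of calls (members, other lists, all genes higher) stayed within 1.5 times their value. Signal near background limits Kera and Aspn, and the top of the scale limits Bgn, Dcn, Fmod and Epyc.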

Other observations

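Bone, muscle and fat genes were measured as signs of other cell types that cartilage pieces could hold. Of 6 osteoblast genes, Sp7, an osteoblast transcription factor gene, changed by -0.79 (SE 0.13, limma adjusted p = 0.00303), the alkaline phosphatase gene Alpl by -0.60 (SE 0.12, adjusted p = 0.00988) and the bone sialoprotein gene Ibsp by 0.58 (SE 0.12, adjusted p = 0.0100), and 3 did not pass. Bglap, the osteocalcin gene, lay at 5.02 ± 0.16 and 5.20 ± 0.31 (SD, n = 4 each), near the array medians. Of 8 skeletal muscle genes Acta1 fell (-0.50, adjusted p = 0.0410) and 7 did not pass. Of 6 adipocyte genes Fabp4, a fatty acid carrier gene, went from 4.12 ± 0.84 to 6.90 ± 0.35 (SD, n = 4 each, limma adjusted p = 8.50e-04). Its Ad-null arrays all lay below the array medians, so the size of this rise is uncertain. Adipoq, the adiponectin gene that defines adipocytes, went from 3.83 ± 0.13 to 4.18 ± 0.13 (adjusted p = 0.0443), below the array medians in both groups. The other 4 did not pass: Plin1 (0.24), Lpl (0.14), Lep (-0.03) and Cidec (-0.25).

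In the list of superficial zone genes of the joint surface, 2 of 7 rose, Clu, the clusterin gene (1.62, SE 0.11, limma adjusted p = 1.67e-05) and Prg4, the lubricin gene (1.84, SE 0.23, adjusted p = 7.19e-04), Erg fell (-0.60, SE 0.15, adjusted p = 0.0269) and 4 did not pass. The mean level of the 7 was 6.51 to 6.84 per array with Ad-null and 6.97 to 7.30 with Ad-Zip8. None of 8 endothelial genes passed (0 by limma, with 0 at an unadjusted p under 0.05, the lowest being 0.110, for Emcn).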
